A study of Mus musculus with 12 samples.

Results

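Peroxisome biogenesis and peroxisomal lipid metabolism were examined through 32 genes of the 23163 in the count table. The genes were taken by symbol from a list of peroxins, peroxisomal oxidation enzymes, transporters and ether lipid enzymes, a rule that uses no measured value, but the list was proposed with earlier results of these data known. All 32 were present in the table, and all 32 passed the filter on low counts in each of the 5 comparisons made. The list holds 12 peroxins and 20 enzymes or transporters. One of the transporters, Abcd4, belongs to the peroxisomal ABC transporter family by sequence but is known for cobalamin transport in lysosomes.

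Peroxisomes are small organelles that shorten very long, branched and dicarboxylic fatty acids by beta-oxidation, remove the hydrogen peroxide made on the way, and carry out the first steps of ether lipid synthesis. Peroxins build them: PEX3, PEX16 and PEX19 place membrane proteins, PEX5 and PEX7 carry matrix enzymes to a docking complex with PEX13 and PEX14, and a ubiquitin ligase with PEX2 and PEX10 and an ATPase with PEX6 and its anchor PEX26 recycle the receptors. Peroxisomes are abundant in brown fat, where shortened acyl chains can pass to mitochondria as carnitine esters.

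The 2 tissues sequenced were brown fat (BAT), which makes heat, and white fat from under the skin (sWAT), a store that can take on brown features in cold. The animals were 20 wild-type male C57Bl/6 mice aged 8 to 12 weeks, of which 10 were kept at 4 °C (cold) and 10 at 30 °C (thermoneutral, at which body temperature is held without added heat production), each for 72 hours. The 4 groups, BAT cold, BAT thermoneutral, sWAT cold and sWAT thermoneutral, have 3 libraries each, prepared from total RNA. Whether a library came from 1 animal or a pool is not stated in the labels.

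Many peroxisomal genes are known targets of PPAR receptors, which bind with RXR to a repeat of the half-site AGGTCA with 1 base between the copies. RefSeq promoter windows (build GRCm38.p6, 250 bases before to 50 after a start) were found for 25 of the 32 genes, in 30 windows, and both strands were searched. No window was used for Pex2, Pex19, Hsd17b4, Abcd2, Abcd4, Amacr or Crat. The repeat, with at most 2 mismatches over both copies, was in windows of Acox2 and Cat (2 of 25 genes). That is 2 of the 30 windows, beside 3.86% of all 32841 windows. A single exact AGGTCA, which overlaps the repeat in Cat, was in Cat, Phyh and Scp2 (3 of 25 genes). That is 3 of the 30 windows, beside 16.3% of all windows. The stretch before Cat (chr2:103485161-103485403, minus strand), and the sites of Acox2 (chr14:8258813-8258835, minus strand) and Scp2 (chr4:108118646-108118661, minus strand) are shown because all 3 genes rose in cold in both tissues. Abcd3 and Ehhadh also rose in both, and their windows held neither motif. Phyh, whose half-site is not shown, did not pass in BAT. The Acox2 site begins at base 10 after the start of its window's transcript. The Scp2 window lies inside the annotated gene, whose 5′ end is at 108144998, so it belongs to an internal start. The sequences are written 5′ to 3′ in lower case, with the repeat (Cat, Acox2) or the half-site (Scp2) in capitals. A match describes these letters and is not evidence of binding.
Cat: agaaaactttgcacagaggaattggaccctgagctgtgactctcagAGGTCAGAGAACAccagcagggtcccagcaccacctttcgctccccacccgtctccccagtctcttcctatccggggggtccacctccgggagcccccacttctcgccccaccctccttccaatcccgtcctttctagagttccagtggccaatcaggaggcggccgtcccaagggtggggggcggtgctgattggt
Acox2: gtcccAGGACAGAGGTGAgtcaa
Scp2: acagtAGGTCAaaaga

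Library composition differed between groups. The 12 libraries held 27117934 to 56243016 counts. The 3 sWAT thermoneutral libraries stood apart: the 13 genes of mitochondrial DNA took 0.181% to 0.307% of their counts and 17.6% to 53.8% of the others, and ribosomal protein genes took 7.18% to 8.14% against 0.338% to 1.85%. Their slope of log2 level on GC content was 0.71 to 1.13 per 10 percentage points, against −0.49 to 0.28 in the other 9 libraries, and the lowest slope in its group was that of library 3 in both BAT groups and of library 1 in sWAT cold. A library type that coincides with a whole group cannot be told apart from its temperature and tissue, so comparisons with sWAT thermoneutral are also given after a correction for GC content. Adipocyte markers were detected in every library (8 of 8), and all 7 brown adipocyte markers had counts in every library.

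In BAT, cold raised genes of peroxisomal beta-oxidation together with catalase and the carnitine acetyltransferase gene. Of the 32 members, 8 rose and 0 fell past an adjusted p of 0.05 (edgeR quasi-likelihood test, Benjamini-Hochberg adjustment over 14612 genes tested). Among all genes tested 6.82% (996) rose and 5.34% (781) fell. At an unadjusted p under 0.05, 15 members were higher and 1 lower. The number of all genes under an unadjusted p of 0.05 is not given here for any comparison. Unadjusted counts, here and below, therefore cannot be set against a share of all genes. After adjustment DESeq2 called 14 members higher and 0 lower, limma-voom 9 and 0. Of all genes, DESeq2 called 1524 higher and 1282 lower, and limma-voom 1003 and 715. The library titles carry an experiment number, and with that number as a block 12 members rose and 2 fell in BAT. Of all genes, 1493 rose and 1306 fell with the block. The median log2 fold change was 0.65 over the members and −0.04 over all genes tested. By role, 4 of 7 beta-oxidation genes, 1 of 2 acyl-CoA importers, 1 of 4 auxiliary and carnitine enzymes, the 1 peroxide-removing enzyme and 1 of 12 peroxins rose. Neither of the 2 alpha-oxidation genes and none of the 3 ether lipid genes passed, and their values are given further on.

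Ehhadh (mm10 chromosome 16, 21761287 to 21787807, minus strand) encodes the L-bifunctional enzyme of beta-oxidation, which performs the hydration and dehydrogenation steps. In BAT it stood at 58.9, 53.7 and 59.6 CPM (counts scaled to library size) in thermoneutral libraries 1, 2 and 3 and at 171, 152 and 170 CPM in cold. The groups were far apart, with a 2.97-fold rise (log2 fold change 1.57 ± 0.24 SE, adjusted p = 0.00671). Hsd17b4 encodes the D-bifunctional enzyme, which handles very long and branched chains. It rose from 116, 179 and 240 to 559, 562 and 461 CPM, 3.06-fold (1.61 ± 0.33, adjusted p = 0.0188). Both bifunctional enzymes therefore had every cold library above every thermoneutral one.

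Acox2 encodes the oxidase for branched acyl-CoAs and bile acid intermediates. Its transcripts were rare, with 40, 49 and 37 counts in thermoneutral and 139, 187 and 195 in cold BAT libraries. As CPM these were 1.45, 1.38 and 0.867 against 6.23, 5.63 and 6.56, a log2 fold change of 2.37 ± 0.33 (adjusted p = 0.00469). Among the 32 members this was the largest change in BAT. Scp2 encodes the sterol carrier thiolase, the last step for branched chains. It rose from 336, 372 and 378 to 735, 681 and 892 CPM (1.14 ± 0.26, adjusted p = 0.0270).

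The thiolases for straight chains did not pass. Acaa1a stood at 113, 83.3 and 32.5 CPM in thermoneutral and 51.0, 42.6 and 12.9 CPM in cold BAT, with overlapping groups and library 3 lowest in each (−1.04 ± 0.56, adjusted p = 0.257). With the experiment number as a block Acaa1a passed as lower (−1.09 ± 0.20, adjusted p = 0.0183). For Acaa1b the value was 0.95 ± 0.43 (adjusted p = 0.185). The 2 genes are close copies: 19.3% of the 100-base words of Acaa1b transcripts occur in those of Acaa1a, so reads of one may have been counted for the other. Acox3, another branched-chain oxidase, had 0.49 ± 0.28 (adjusted p = 0.286).

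Cat (chromosome 2, 103453849 to 103485160, minus strand) encodes catalase, which breaks down hydrogen peroxide. It stood at 266, 431 and 479 CPM in thermoneutral and at 1047, 1051 and 1040 CPM in cold BAT. The cold libraries were close to each other and all above the thermoneutral ones (1.47 ± 0.31, adjusted p = 0.0201). Crat encodes carnitine acetyltransferase, found in peroxisomes and mitochondria, and it rose from 541, 694 and 704 to 1838, 2209 and 1665 CPM (1.61 ± 0.29, adjusted p = 0.0112). Crot, which attaches medium chains to carnitine, stood at 33.5, 38.3 and 34.4 CPM in thermoneutral and 28.4, 22.2 and 38.2 CPM in cold, with overlapping groups (−0.20 ± 0.27, adjusted p = 0.659). Decr2, needed for unsaturated chains, and Amacr, a racemase for branched chains, had 0.61 ± 0.27 (adjusted p = 0.166) and 1.00 ± 0.33 (adjusted p = 0.0847, and 0.0277 with the block).

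The importers of acyl-CoA had values of opposite sign in BAT. Abcd3 (mm10 chromosome 3, 121758774 to 121815302, minus strand) encodes PMP70, which takes up branched and long dicarboxylic acyl-CoAs. It rose from 197, 231 and 265 to 498, 506 and 619 CPM (1.28 ± 0.27, adjusted p = 0.0201). Abcd2 (chromosome 15, 91145871 to 91191799, minus strand), a transporter of very long unsaturated acyl-CoAs, stood at 37.5, 44.6 and 63.8 CPM in thermoneutral and 22.9, 20.4 and 33.1 CPM in cold BAT. All cold libraries were below all thermoneutral ones, and the change did not pass in the main test (−0.88 ± 0.31, adjusted p = 0.101). The change passed as lower with the block (−0.87 ± 0.20, adjusted p = 0.0332) and with the GC correction. It also passed as lower without cold library 3, and without both BAT libraries numbered 3. Abcd4 had −0.17 ± 0.29 (adjusted p = 0.737).

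Among peroxins in BAT, Pex19 alone passed in the main test. It encodes the chaperone that delivers membrane proteins to the peroxisome, and it stood at 118, 151 and 98.1 CPM in thermoneutral and 256, 252 and 271 CPM in cold (1.14 ± 0.27, adjusted p = 0.0300). Pex11a, which drives peroxisome division, stood at 37.0, 46.1 and 30.7 against 66.1, 63.0 and 74.4 CPM, without overlap (0.89 ± 0.26, adjusted p = 0.0565). Pex7, the receptor for a smaller set of matrix enzymes, and the docking factor Pex14 had 1.15 ± 0.32 (adjusted p = 0.0503) and 1.69 ± 0.48 (adjusted p = 0.0553). For Pex14 and Pex16, library 3 was the lowest of both BAT groups: Pex16 stood at 40.6, 35.2 and 14.2 CPM in thermoneutral and 106, 99.9 and 34.1 CPM in cold (1.47 ± 0.51, adjusted p = 0.0945). With the block 3 of these peroxins passed, with adjusted p of 0.00979 for Pex16, 0.0113 for Pex14 and 0.0442 for Pex11a. The remaining 7 peroxins (Pex5, Pex13, Pex2, Pex10, Pex6, Pex26 and Pex3) had log2 fold changes of −0.36 to 0.70 and adjusted p of 0.104 to 0.919 in the main test. With the GC correction Pex7, Pex13, Pex14, Pex16 and Pex11a passed as higher (adjusted p = 0.0219, 0.0237, 0.0363, 0.00938 and 0.0379). The median log2 fold change was 0.69 over the 12 peroxins, 10 of them positive, and 0.55 over the 20 other members, 14 of them positive.

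Alpha-oxidation removes 1 carbon from phytanic acid, a branched fat of the diet. Its hydroxylase gene Phyh stood at 418, 623 and 430 CPM in thermoneutral and 431, 425 and 506 CPM in cold BAT, with overlapping groups (−0.06 ± 0.28, adjusted p = 0.911). Hacl1, the lyase of that pathway, had 0.45 ± 0.24 (adjusted p = 0.250). The ether lipid genes Gnpat, Agps and Far1, which make the glycerol-ether backbone and its fatty alcohol, had 0.18 ± 0.26, 0.44 ± 0.36 and −0.19 ± 0.63 (adjusted p = 0.682, 0.439 and 0.871).

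The BAT count rested on few libraries. Members rising numbered 2 when library 1 or 2 of the cold group or library 2 of the thermoneutral group was left out, 3 without thermoneutral library 1, and 13 without cold library 3. Calls over all genes with a single library left out are not given here. Whether these shifts are particular to the members therefore cannot be read from the counts. Without both BAT libraries numbered 3, 18 rose and 3 (Abcd2, Acaa1a and Far1) fell. Calls over all genes also grew in that setting, to 3265 rising and 3244 falling, against 996 and 781 in the main test. Acox2 and Ehhadh passed under every alternative run, and the other 6 lost the call in at least 1 of these. Brown adipocyte markers summed to 6383 to 7059 CPM in thermoneutral and 26289 to 29839 CPM in cold BAT, adipocyte markers to 17117 to 18802 and 22661 to 29147 CPM, and skeletal muscle markers to 3456 to 10865 and 4208 to 6487 CPM. Their part in the members' rise was not tested. In bulk tissue, more cells of a type and more RNA per cell cannot be told apart.

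**Figure D1:**
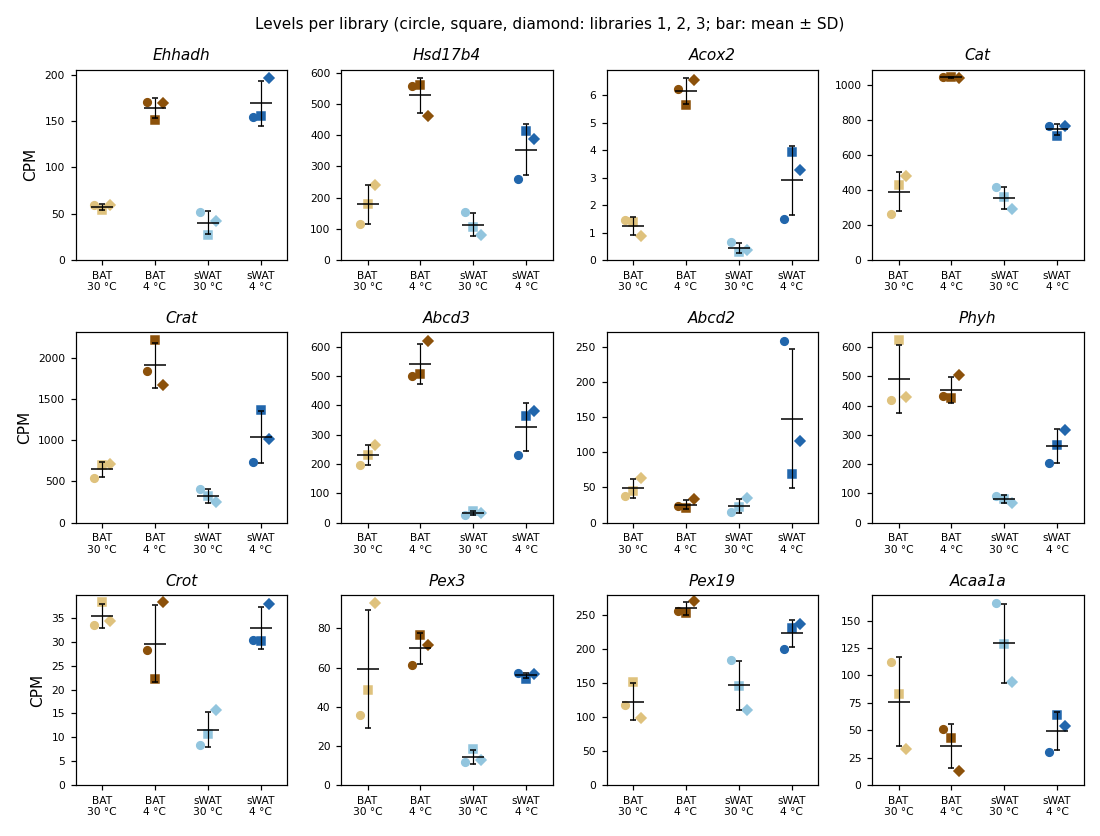
Levels in CPM (y axis, from 0) of 12 members in the 4 groups (x axis); circles, squares and diamonds are libraries 1, 2 and 3, and bars are the mean and SD of 3 libraries. Cat lies at 1040 to 1051 CPM in cold BAT, above every other library, and Abcd2 is highest in sWAT cold library 1 at 259 CPM.

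In sWAT, both acyl-CoA importers were higher in cold, along with genes of beta-oxidation, alpha-oxidation and carnitine transfer. Temperature cannot be told apart here from a library type that coincides with the sWAT thermoneutral group. Of 32 members, 17 rose and 1 fell (edgeR, adjusted over 15731 genes tested). Among all genes tested 25.1% rose and 24.1% fell, so calls were many in both directions. The median log2 fold change was 0.97 over the members and 0.00 over all genes tested, and 0.76 and 0.04 with the correction for GC content. Both importers rose, as did 4 of 7 beta-oxidation genes with 1 falling, 3 of 4 auxiliary and carnitine enzymes, both alpha-oxidation genes, catalase, 1 of 3 ether lipid genes and 4 of 12 peroxins. With the experiment number as a block 14 members rose and 1 fell, beside 3302 and 3207 of all genes. Cat, Decr2 and Pex13 then no longer passed (adjusted p = 0.0593, 0.0522 and 0.108).

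Abcd3 rose most in sWAT, from 27.1, 40.8 and 31.2 CPM in thermoneutral to 230, 365 and 381 CPM in cold, 9.81-fold (3.29 ± 0.33, adjusted p = 0.000301). Abcd2 rose from 15.0, 21.9 and 34.4 to 259, 68.8 and 116 CPM (2.65 ± 0.53, adjusted p = 0.00412). Cold library 1 was the highest for Abcd2, and without it the change was 1.96 (adjusted p = 0.00223). That library had the lowest brown adipocyte marker sum of the sWAT cold group (4664 CPM, against 15701 and 17808).

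Of the beta-oxidation genes, Ehhadh rose from 52.0, 26.7 and 42.5 to 155, 156 and 197 CPM (2.06 ± 0.32, adjusted p = 0.00130). Hsd17b4 rose from 154, 106 and 81.3 to 260, 413 and 388 CPM (1.63 ± 0.34, adjusted p = 0.00509). Acox2 had 28, 12 and 19 counts in thermoneutral and 81, 132 and 104 in cold libraries, or 0.651, 0.291 and 0.360 against 1.50, 3.93 and 3.26 CPM (2.71 ± 0.51, adjusted p = 0.00304). In these 3 genes each cold library exceeded each thermoneutral one. Scp2 rose from 232, 208 and 189 to 486, 543 and 616 CPM (1.38 ± 0.29, adjusted p = 0.00469).

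Acaa1a was the member that fell. It went from 166, 128 and 93.6 to 30.2, 63.9 and 54.3 CPM in sWAT (−1.40 ± 0.34, adjusted p = 0.00948), with the caution on its copy Acaa1b, which had −0.19 ± 0.39 (adjusted p = 0.717). Its exons also overlap those of Myd88 on the other strand, and the strand setting of the counting is not known here. The same holds for Pex3 with Adat2, Pex13 with Pus10, Pex16 with Large2, Crat with Dolpp1, Hacl1 with Btd, Acaa1b with Dlec1 and Far1 with Far1os. It also holds for Gnpat with 2810004N23Rik, Crot with Gm37153, Pex26 with Gm44014, Pex14 with Gm17029 and Acox3 with 4931431C16Rik. Acox3 had 0.02 ± 0.21 (adjusted p = 0.941).

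Both carnitine acyltransferase genes rose in sWAT. Crat went from 412, 324 and 243 to 736, 1363 and 1014 CPM (1.66 ± 0.37, adjusted p = 0.00636). Crot went from 8.42, 10.7 and 15.6 to 30.4, 30.2 and 37.9 CPM (1.50 ± 0.29, adjusted p = 0.00337). Decr2 rose by 0.98 ± 0.29 (adjusted p = 0.0211), and Amacr had 0.96 ± 0.40 (adjusted p = 0.0721). Cat rose from 418, 362 and 292 to 768, 712 and 766 CPM (1.06 ± 0.30, adjusted p = 0.0186).

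Phyh rose from 92.3, 81.8 and 67.2 to 203, 267 and 317 CPM in sWAT (1.70 ± 0.29, adjusted p = 0.00194), and Hacl1 from 22.9, 12.9 and 15.9 to 33.7, 39.8 and 38.7 CPM (1.11 ± 0.27, adjusted p = 0.00971). Far1, which makes the fatty alcohol of ether lipids, went from 4.72, 5.07 and 6.87 to 26.9, 10.1 and 14.3 CPM (1.63 ± 0.40, adjusted p = 0.00980). Gnpat and Agps had 0.46 ± 0.27 (adjusted p = 0.188) and −0.41 ± 0.37 (adjusted p = 0.370). Abcd4 had 0.12 ± 0.24 (adjusted p = 0.694).

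The peroxins that passed in sWAT were Pex3, Pex11a, Pex2 and Pex13. Pex3, the membrane anchor for PEX19, went from 12.0, 18.6 and 12.6 to 57.0, 54.4 and 56.5 CPM (1.96 ± 0.25, adjusted p = 0.000588). Pex11a went from 22.9, 25.4 and 20.5 to 45.4, 57.3 and 55.8 CPM (1.20 ± 0.22, adjusted p = 0.00262). Pex2 and Pex13 had 1.07 ± 0.30 (adjusted p = 0.0164) and 0.61 ± 0.22 (adjusted p = 0.0476). Pex19 stood at 183, 146 and 111 against 200, 231 and 237 CPM (0.60 ± 0.28, adjusted p = 0.110). The other 7 peroxins (Pex5, Pex7, Pex14, Pex10, Pex6, Pex26 and Pex16) had log2 fold changes of −0.59 to 0.45 and adjusted p of 0.139 to 0.732.

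**Figure D2:**
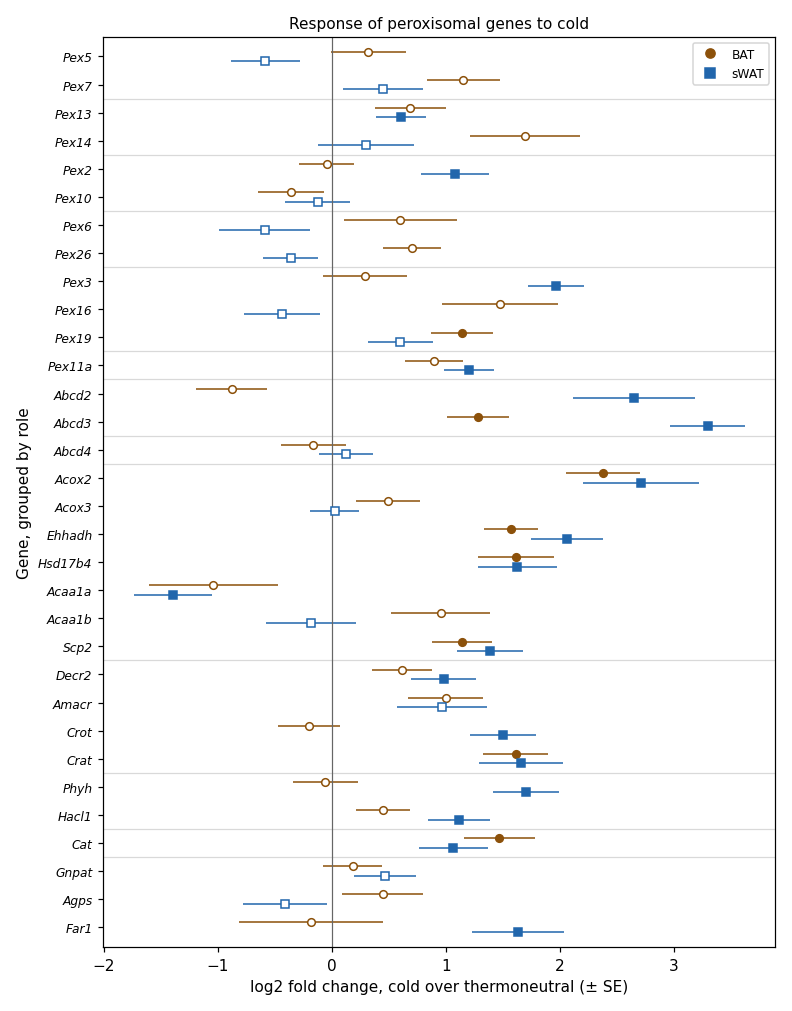
Log2 fold change of cold over thermoneutral (x axis, ± SE, 3 libraries per group) for the 32 members by role (y axis), in BAT (circles) and sWAT (squares); filled symbols passed an adjusted p of 0.05. In BAT 8 members are filled, and in sWAT 18, of which Acaa1a alone lies below 0.

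A correction for GC content changed which members passed in sWAT. With it 15 rose and 2 fell, beside 3841 and 3006 of all genes. Of the 18 members called before, 13 remained, counting Pex13, whose direction turned. Pex3 went from 1.96 to 0.26 (adjusted p = 0.429), Pex2 to 0.22 (adjusted p = 0.533), Far1 to −0.48 (adjusted p = 0.193), Scp2 to 0.78 (adjusted p = 0.0612) and Acaa1a to −0.71 (adjusted p = 0.0564). Pex13 turned to −1.09 (adjusted p = 0.00802), and Agps passed as lower at −1.51 (adjusted p = 0.00390). Pex6, Pex16 and Acaa1b turned from negative to positive values and passed (0.79, 0.73 and 0.89). Transcripts of the 17 members that rose had a median GC content of 45.8%, and those of the 14 that did not pass 52.4%.

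Of the sWAT calls, 10 passed under every alternative run: Pex11a, Abcd2, Abcd3, Acox2, Ehhadh, Hsd17b4, Crot, Crat, Phyh and Hacl1. With the correction Abcd3 stood at 2.68, Acox2 at 3.08, Crat at 2.24, Ehhadh at 1.80, Hsd17b4 at 1.66, Abcd2 at 1.48, Pex11a at 1.28, Phyh at 1.25, Hacl1 at 1.04 and Crot at 0.83. Abcd2 (2.65 without it), Abcd3 (3.29) and Crot (1.50) shrank most. Leaving out any 1 library left 13 to 19 members rising, and the matching counts over all genes are not given here. Brown adipocyte markers summed to 258 to 1183 CPM in thermoneutral and 4664 to 17808 CPM in cold sWAT, adipocyte markers to 7240 to 11154 and 20627 to 28694 CPM, skeletal muscle markers to 111 to 5040 and 8156 to 21203 CPM, and lymphocyte markers to 940 to 1303 and 275 to 883 CPM. Fibroblast and progenitor markers summed to 2601 to 4355 CPM in thermoneutral and 847 to 1433 CPM in cold sWAT, and macrophage markers to 508 to 1084 and 205 to 360 CPM. Liver markers summed to 254 to 588 and 460 to 1620 CPM, highest in cold library 1. The part of these shifts in the members' changes was not tested.

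**Figure D3:**
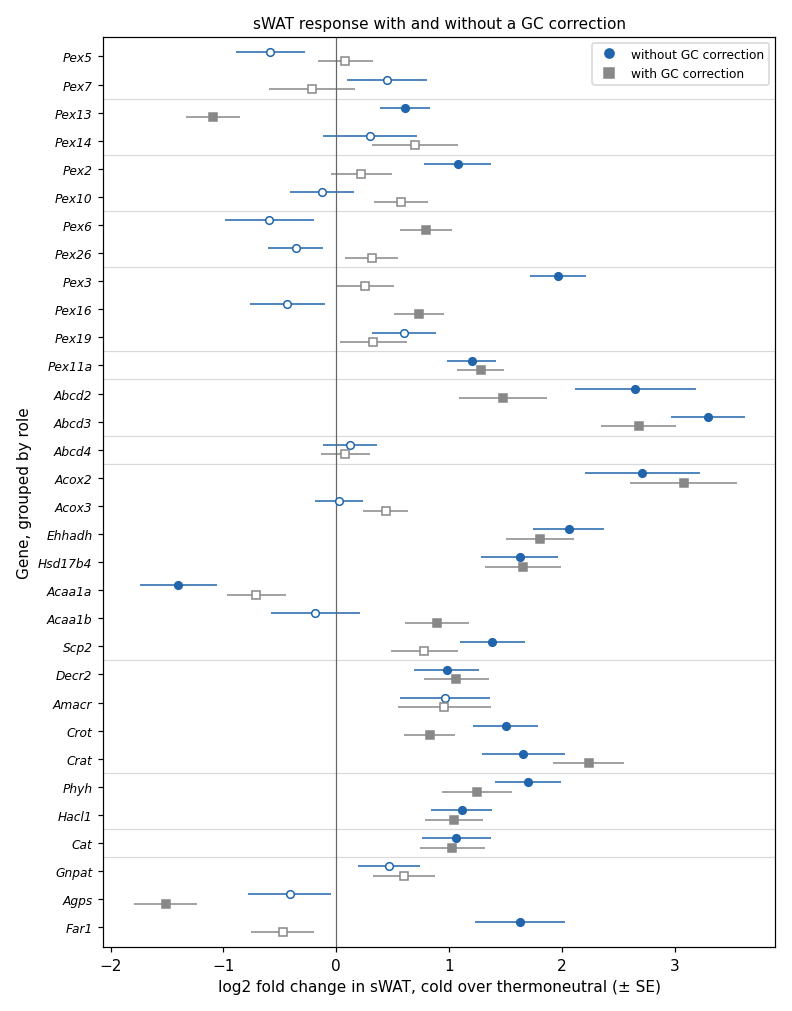
Log2 fold change of cold over thermoneutral in sWAT (x axis, ± SE) for the 32 members (y axis), without (circles) and with (squares) the correction for GC content; filled symbols passed an adjusted p of 0.05. Abcd3, Ehhadh and Hsd17b4 stay above 0 with filled symbols, while Pex3 moves from 1.96 to 0.26 and Pex13 from 0.61 to −1.09.

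In both tissues 7 members rose: Abcd3, Acox2, Ehhadh, Hsd17b4, Scp2, Crat and Cat. These are 7 of the 8 that rose in BAT and 7 of the 17 that rose in sWAT. In sWAT the call of Scp2 was lost with the GC correction and that of Cat with the block. Pex19 rose in BAT and did not pass in sWAT, but the difference between its responses did not pass (0.48 ± 0.37, adjusted p = 0.353). Passing in neither tissue were 13 members. Of all genes tested, 6.82% rose in BAT and 25.1% in sWAT. The shares of all genes rising in both or passing in neither are not given here. These counts are therefore no result about the members as a group.

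The difference between the responses was tested directly over all 12 libraries, as the BAT response minus the sWAT response. It passed as negative, meaning a more positive response in sWAT, for 6 members (Abcd2, Abcd3, Phyh, Crot, Pex3 and Pex2) and as positive for 1 (Pex26), beside 17.3% and 7.85% of the 16365 genes tested. These counts are near the shares over all genes and are no result about the members as a group. The median difference was −0.20 over the members and −0.12 over all genes, and −0.21 and −0.24 with the GC correction. Pex16 (1.84 ± 0.65, adjusted p = 0.0542) passed with the experiment number as a block (adjusted p = 0.0402). Abcd2 had the largest difference (−3.57 ± 0.64, adjusted p = 0.00252), with a log2 fold change of −0.88 in BAT and 2.65 in sWAT, and −2.66 (adjusted p = 0.00470) without sWAT cold library 1. Abcd3 rose in both tissues and by more in sWAT (difference −2.07 ± 0.40, adjusted p = 0.00383). Phyh and Crot differed by −1.81 ± 0.40 and −1.76 ± 0.39 (adjusted p = 0.00654 and 0.00712).

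Pex3 and Pex2 differed by −1.72 ± 0.45 (adjusted p = 0.0156) and −1.18 ± 0.38 (adjusted p = 0.0381). Pex26, the anchor of the export ATPase, stood at 8.52, 9.89 and 8.51 CPM in BAT thermoneutral, 12.9, 15.7 and 13.6 in BAT cold, 15.2, 18.3 and 14.4 in sWAT thermoneutral and 13.3, 13.5 and 10.5 in sWAT cold (difference 1.01 ± 0.32, adjusted p = 0.0347). The GC correction ended the calls of these 3 genes, with Pex3 at 0.16 (adjusted p = 0.867), Pex2 at −0.21 (adjusted p = 0.736) and Pex26 at 0.24 (adjusted p = 0.628). It added calls for Agps (1.91, adjusted p = 0.00341), Pex13 (1.79, adjusted p = 0.002) and Pex10 (−1.15, adjusted p = 0.0335). Abcd2 (−2.30), Abcd3 (−1.38), Phyh (−1.34) and Crot (−1.05) passed with it, but Phyh not with the block added (adjusted p = 0.0532). For Ehhadh, Hsd17b4, Crat and Cat the differences were −0.55 ± 0.36, −0.07 ± 0.47, −0.11 ± 0.46 and 0.35 ± 0.41, with adjusted p of 0.279 to 0.931. A p that misses the threshold does not show equal responses.

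At thermoneutrality Abcd3 and Phyh were the members that stood furthest above their sWAT levels in BAT. Of 32 members, 11 were higher in BAT and 3 lower, beside 29.9% and 28.8% of the 16365 genes tested, so the share higher was near that of all genes. The median log2 difference was 0.53 over the members and 0.03 over all genes, and 0.26 and 0.10 with the GC correction. The 2 largest were those of Abcd3 (231 ± 34.1 CPM in BAT and 33.0 ± 7.04 in sWAT, SD, n = 3, log2 difference 2.81 ± 0.30, edgeR adjusted p = 9.9e-06) and Phyh (490 ± 115 and 80.4 ± 12.6 CPM, 2.61 ± 0.30, adjusted p = 1.4e-05). Pex3 (2.04), Crot (1.61), Acox2 (1.50), Pex2 (1.24), Decr2 (1.18), Crat (0.99), Abcd4 (0.85), Scp2 (0.79) and Pex11a (0.72) were also higher in BAT. Pex16 (−2.12 ± 0.48, adjusted p = 0.00205), Acaa1b (−1.61 ± 0.46, adjusted p = 0.00902) and Pex26 (−0.83 ± 0.23, adjusted p = 0.00670) were lower.

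Cat stood at 392 ± 112 CPM in thermoneutral BAT and 358 ± 63.2 CPM in thermoneutral sWAT, a log2 difference of 0.13 ± 0.29 (adjusted p = 0.715). With the GC correction Pex2, Pex3, Scp2, Acaa1b and Pex26 no longer passed, and 5 members were lower in BAT in place of 3. The correction added Agps (−1.85), Pex13 (−1.38), Far1 (−1.20) and Pex7 (−0.95) as lower in BAT. It added Pex10 (1.32), Pex6 (0.86) and Gnpat (0.81) as higher. Pex16, Abcd3, Acox2, Decr2, Crot and Phyh passed under every alternative run. Leaving out BAT thermoneutral library 2 left 7 members higher, with Pex11a, Abcd4, Scp2 and Crat the ones lost.

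In cold the depots differed in 1 member. Abcd2 was lower in BAT (25.5 ± 6.73 CPM) than in sWAT (148 ± 98.9 CPM), a log2 difference of −2.54 ± 0.46 (edgeR adjusted p = 0.00255), and −1.65 (adjusted p = 0.0211) without sWAT cold library 1. No member was higher in BAT by edgeR, beside 1.19% of all genes higher and 11.1% lower. At an unadjusted p under 0.05, 5 were higher (Abcd3, Acox2, Decr2, Crat and Phyh), DESeq2 called 6 higher and limma-voom 1. Of all genes, DESeq2 called 721 higher and limma-voom 256, and the unadjusted count is not given here. Abcd3 stood at 541 ± 67.9 CPM in BAT and 325 ± 82.7 in sWAT (0.73 ± 0.28, adjusted p = 0.115), and Ehhadh at 164 ± 10.8 and 169 ± 24.2 CPM (−0.04 ± 0.26, adjusted p = 0.945). The depot comparisons use the same libraries as the temperature comparisons and are not independent of them.

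**Figure D4:**
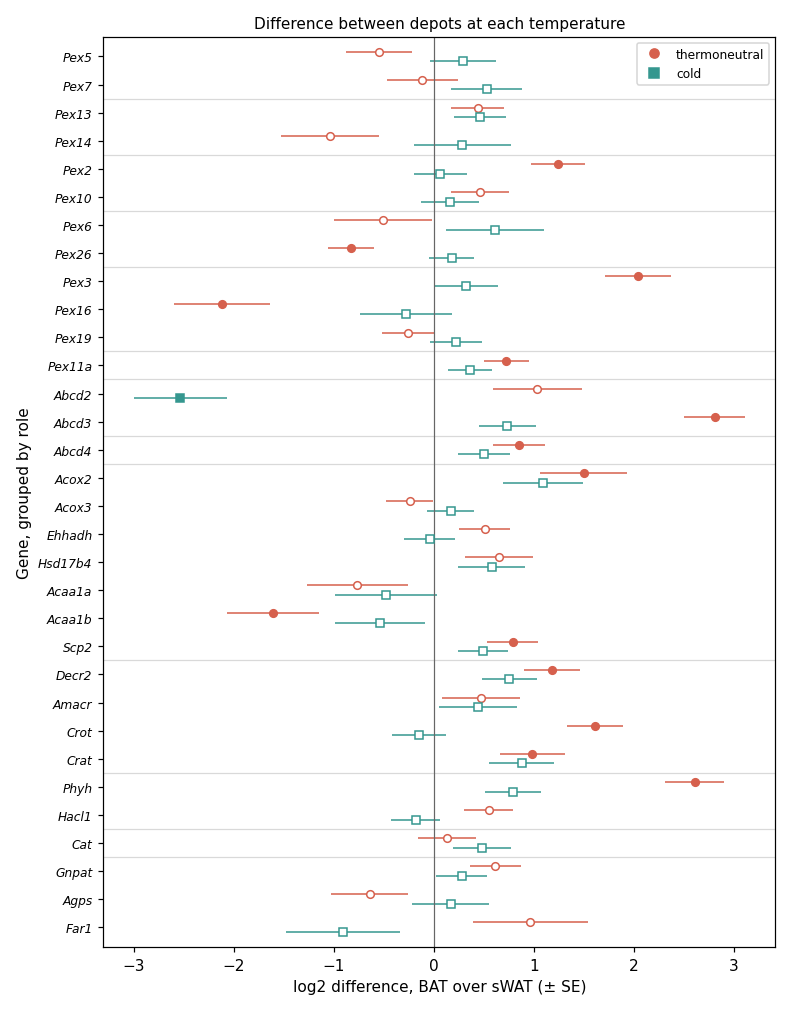
Log2 difference of BAT over sWAT (x axis, ± SE, 3 libraries per group) for the 32 members (y axis) at thermoneutrality (circles) and in cold (squares); filled symbols passed an adjusted p of 0.05. At thermoneutrality 14 members are filled, and in cold Abcd2 alone, at −2.54.

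Levels were compared between genes per kilobase of exon. Cat was the highest member in cold BAT (400 ± 2.07 CPM per kb), followed by Crat (353 ± 51.6), Phyh (240 ± 23.7), Scp2 (221 ± 31.5) and Hsd17b4 (155 ± 16.9). Cat and Crat lay within 1 SD of each other, as did Phyh and Scp2. With the longest transcript as length, Crat ranked above Cat. In thermoneutral BAT Phyh led (259 ± 60.7 CPM per kb), then Cat (150 ± 42.7), Crat (120 ± 17.0) and Scp2 (104 ± 6.54). Cat led in both sWAT groups, at 137 ± 24.2 CPM per kb in thermoneutral and 286 ± 12.3 in cold.

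Acox2 was the lowest member in 3 groups, from 0.117 ± 0.0516 CPM per kb in thermoneutral sWAT to 0.783 ± 0.339 in cold sWAT. In cold BAT it stood at 1.66 ± 0.127, above Far1 (1.13 ± 0.744) and within 1 SD of it. Abcd3 stood at 35.1 ± 5.18 in thermoneutral BAT and at 82.1 ± 10.3 in cold. In thermoneutral sWAT it was at 5.01 ± 1.07 CPM per kb, among neighbours within 1 SD. Pex19 was the highest peroxin in cold BAT (68.1 ± 2.57).

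Of 36 other peroxisomal genes listed, 35 were in the table. In BAT 7 of 32 tested rose in cold and 2 fell, beside 6.82% and 5.34% of all genes. Of those that rose, the smallest adjusted p were those of Slc25a17, a peroxisomal carrier of coenzyme A (2.17 ± 0.27, adjusted p = 0.00360), Nudt19, which cleaves coenzyme A (1.31 ± 0.24, adjusted p = 0.0122), and Ephx2, the soluble epoxide hydrolase (1.46 ± 0.27, adjusted p = 0.0123). Baat, a bile acid conjugating enzyme, fell from 15, 12 and 24 counts to 0, 1 and 1 (adjusted p = 0.00888), too few for a fold. In sWAT 14 of 33 rose and 0 fell, led by Acbd5, a membrane tether that binds acyl-CoA (2.83 ± 0.26), Nudt12 (2.83 ± 0.26), Slc25a17 (2.85 ± 0.31) and Idh1, a source of NADPH (2.99 ± 0.36), with adjusted p of 0.000257 to 0.000507. For that 0, the unadjusted count by edgeR was 1, and DESeq2 and limma-voom called 0. Among all genes tested in sWAT, 25.1% rose and 24.1% fell. With the GC correction 22 of these peroxisomal genes rose in sWAT and 1 fell, beside 3841 and 3006 of all genes.

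The response differed between tissues for 8 of 34 of these genes, all more positive in sWAT, with Idh1 (−2.48 ± 0.47), Nudt7 (−1.61 ± 0.33), Ddo (−1.83 ± 0.39) and Acbd5 (−1.97 ± 0.47) first by adjusted p (0.00322 to 0.0100). None was more positive in BAT by edgeR after adjustment, 2 at an unadjusted p under 0.05, and 1 each by DESeq2 and limma-voom. Of all genes, 17.3% were more positive in sWAT and 7.85% in BAT by edgeR. With the GC correction 7 of these peroxisomal genes were more positive in sWAT and 1 in BAT, beside 2520 and 986 of all genes. At thermoneutrality 17 of 34 were higher in BAT and 2 lower, beside 29.9% and 28.8% of all genes. Ddo (2.43), Nudt7 (1.96), Acbd5 (2.66) and Idh1 (2.50) led. With the GC correction 21 were higher in BAT and 2 lower, beside 5046 and 4429 of all genes. In cold 0 differed by edgeR and by limma-voom, 6 at an unadjusted p under 0.05, and 1 by DESeq2. Of all genes, 1.19% were higher in BAT in cold and 11.1% lower by edgeR.

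Among 8 regulators of peroxisomal genes, 2 rose in cold in BAT, beside 6.82% of all genes. Ppard, a PPAR receptor, rose from 17.6, 22.4 and 19.1 to 69.2, 82.9 and 38.0 CPM (1.74 ± 0.33, adjusted p = 0.0148). Ppargc1a, a coactivator, rose from 30.9, 51.9 and 108 to 194, 409 and 390 CPM (2.43 ± 0.51, adjusted p = 0.0202). In sWAT 5 rose, beside 25.1% of all genes. They were led by Ppargc1a (2.44, 2.26 and 1.75 to 65.6, 215 and 130 CPM, 5.98 ± 0.48, adjusted p = 0.000198), Pparg (2.33 ± 0.27, adjusted p = 0.000437), Prdm16 (1.41 ± 0.32, adjusted p = 0.00702) and Ppargc1b (1.81 ± 0.41, adjusted p = 0.00712). Ppara, the receptor best known for peroxisomal targets in liver, stood at 97.0, 112 and 108 CPM in thermoneutral and 65.9, 83.9 and 73.0 CPM in cold BAT. In sWAT it stood at 19.1, 16.8 and 10.5 against 20.9, 78.5 and 60.4 CPM, and its response differed between the tissues (−2.30 ± 0.55, adjusted p = 0.0100).

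The difference of responses also passed for Ppargc1a (−3.61 ± 0.70, adjusted p = 0.00383), Pparg (−1.71 ± 0.40, adjusted p = 0.00846) and Rxra, the PPAR partner (1.36 ± 0.37, adjusted p = 0.0191). With the GC correction the call of Rxra was lost, and 0 regulators were more positive in BAT in place of 1. Those more positive in sWAT were then 5 in place of 4, beside 986 and 2520 of all genes. In sWAT 6 regulators rose in cold with the correction, beside 3841 of all genes. In thermoneutral animals 5 of the 8 were higher in BAT and 1 lower, beside 29.9% and 28.8% of all genes. Ppargc1a (4.89), Pparg (2.44), Ppara (2.78) and Ppargc1b (2.78) led. With the GC correction 5 regulators were higher in BAT and 1 lower, beside 5046 and 4429 of all genes. In cold Prdm16 was higher in BAT (1.01 ± 0.29, adjusted p = 0.0384) and the other 7 did not pass.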

How the data were processed

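The deposited table gives the authors' raw counts per gene for 12 libraries, with 0 value columns unassigned. Per the submitters' processing notes, STAR, DESeq2 and mm10 were used. For the counting tool, strand setting and annotation, the sources used here name nothing. Libraries were prepared from 1000 ng of total RNA and read as 100 nt pairs, per the labels' protocols. Nothing says that libraries are separate animals, so p-values measure the spread between these samples, which may be technical. Titles number libraries by experiment, without saying what an experiment shared, and same-numbered libraries correlated at 0.09 to 0.43 in BAT and −0.35 to 0.21 in sWAT, as deviations from group means. Values with that number as a block are given where they change a call.

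Counts were compared with edgeR 4.0.16 (R 4.3.3): filterByExpr, TMM scaling, glmQLFit (robust=TRUE), glmQLFTest, and Benjamini-Hochberg adjustment over all genes tested, threshold 0.05. Within-tissue comparisons used 6 libraries, the other 3 comparisons all 12. SE is the log2 fold change divided by the square root of F. The fit was tested on simulated counts. CPM use the total times the TMM factor. Lengths, GC content and overlaps came from GENCODE M21, matched by symbol for 22240 genes (96.0%).

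All members are named. Of other listed genes, up to 4 per comparison with the smallest adjusted p are named, and Ppara in cold BAT and sWAT was added after its values were seen. Members and lists were chosen with earlier results of these data known. Alternatives were RLE and upper quartile scaling, other filters, DESeq2 1.42.0, limma-voom (limma 3.58.1), GC offsets, a replicate block and left-out libraries. Totals without mitochondrial and ribosomal protein genes were an alternative chosen after seeing the data. Single values of some other listed genes are not reported here.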

Additional observations from a re-analysis of the deposited data

Results flagged for a closer look

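The cold response differed between BAT and sWAT for 7 members by the test of the difference itself (edgeR, adjusted over 16365 genes). Lower values in BAT were called for 6 and higher for 1, beside 17.3% and 7.85% of all genes, so the count is not particular to the members. As BAT minus sWAT on the log2 scale, the differences were −3.57 for Abcd2, −2.07 for Abcd3, −1.81 for Phyh, −1.76 for Crot, −1.72 for Pex3, −1.18 for Pex2 and 1.01 for Pex26. In every case the sWAT thermoneutral libraries, which differ from the rest in mitochondrial share and GC slope, enter the difference. Abcd2, Abcd3, Phyh and Crot passed with the GC correction, and Pex3, Pex2 and Pex26 did not. Groups of 3 libraries were too small to test for outlying samples.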

How the results depend on the processing

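In BAT the 8 rising members all passed under each alternative that kept every library. The count rising was 14 with DESeq2, 13 with the GC correction, 14 with the replicate block and GC correction together, and 18 without both libraries numbered 3. Those falling, 0 in the report, were 1 with the GC correction, 2 with the replicate block, 1 with both, and 3 without both libraries numbered 3. Over all genes, the main test called 996 rising and 781 falling. DESeq2 called 1524 and 1282, the GC correction 1573 and 1519, and the block 1493 and 1306. Block and GC correction together called 1793 and 1709, and the fit without both libraries numbered 3 called 3265 and 3244. Leaving out 1 library gave 2 to 13 members rising and 0 to 1 falling. For no comparison are counts over all genes given here with 1 library left out. In sWAT the replicate block with GC correction gave 11 members rising and 2 falling (3165 and 2467 of all genes), and the GC correction 2 falling. Leaving out 1 library gave 13 to 19 rising and 1 to 2 falling.

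For the difference of responses, members more positive in BAT numbered 0 without a filter and 2 each with RLE scaling, DESeq2, the GC correction, the replicate block, both together, and totals without mitochondrial and ribosomal protein genes. Leaving out 1 library gave 0 to 4 more positive in BAT and 4 to 7 in sWAT. At thermoneutrality the GC correction gave 5 members lower in BAT, and leaving out 1 library gave 7 to 14 higher and 3 to 4 lower. In cold, members higher in BAT were 6 with DESeq2, 1 with limma-voom, 1 with the GC correction and 0 to 2 with 1 library left out, and 1 was lower throughout.

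Among values that passed in either setting, 15 changed sign, all under the GC correction, alone or with the replicate block. They were Pex13 (−1.09 and −1.09) and Far1 (−0.48 and −0.50) in sWAT, Pex3 (0.16 and 0.17) in the difference of responses, and Pex13 (−1.38 and −1.37), Pex6 (0.86 and 0.86) and Far1 (−1.20 and −1.28) between depots at thermoneutrality. Under the correction alone, Pex6 (0.79), Pex16 (0.73) and Acaa1b (0.89) did so in sWAT. Another 111 alternative values, of 38 gene values, changed sign without passing in either setting. The cause was not tested.

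The replicate block changed no call of a member beyond those given in the report. Of the other listed genes, it added Esrra and Prdm16 in BAT (regulators rising, 4 in place of 2) and Far2 and Ppard in the difference of responses, and removed Nudt19 in sWAT, among others. Upper quartile scaling moved the median of all genes in BAT from −0.04 to −0.20, with 41.5% of calls higher against 56.05%, and RLE moved that of the difference of responses from −0.12 to 0.03, with 41.6% against 31.3%. Of 128 levels per kilobase, 75 moved by over 1 SD with the longest transcript as length. Acox2, with 12 to 195 counts per library, is the member most limited by depth.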
